A study of Drosophila melanogaster with 32 samples.

Results

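The satellite family named for its buoyant density (the number in the allele name PoX2Df1.688) consists of tandem repeats with units of roughly nucleosome-multiple length, makes up a large pericentromeric block on the X chromosome of Drosophila melanogaster and is also scattered in short stretches along the euchromatic arm of the X. The X blocks described here are all rows of the deposited table of blocks of this family that lie on the X, 107 of 652 blocks (16.4%). The other 545 lie on other chromosome arms and on unplaced scaffolds. RNA-seq counts were available for whole adult males and virgin females of 4 genotypes, with 4 libraries per sex and genotype (32 in all) and 10 pooled flies per library, aged between 6 and 24 h after hatching. Wild type was Oregon R. PofD119 carries a deletion in the coding region of Pof, Zhr1 lacks the large pericentromeric block of these repeats on the X (the Zhr1 males had a wild-type Y without the translocation), and PoX2Df1.688 lacks the repeats downstream of CG1840. The stocks were not made isogenic, so that in every comparison the allele and the strain background cannot be told apart.

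Satellite repeats are largely packed into heterochromatin, yet RNA is made from them, and in flies short RNAs from this family have been linked to dosage compensation. Males make up for their single X by about doubling its output, through general buffering together with the MSL complex, which holds the non-coding RNAs roX1 and roX2. POF is a protein named for painting chromosome 4 that also binds X-linked sites with these repeats, PoX1 and PoX2 (POF on X) being such sites. Zhr (Zygotic hybrid rescue) is the pericentromeric satellite locus named for the rescue of hybrid females that follows its deletion.

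The blocks were found by the authors with BLAST, from 9 query sequences of the family. One of the queries is shown to give the repeat that the blocks resemble; it is a query and not the sequence of any one block, and the sequences of the blocks were not used here. Bases 60 to 359 of the 359 bases are printed, and capitals mark bases 313 to 354, the longest run (42 bases) shared with any of the other queries, which is one of 353 bases.
dmel_Xhet: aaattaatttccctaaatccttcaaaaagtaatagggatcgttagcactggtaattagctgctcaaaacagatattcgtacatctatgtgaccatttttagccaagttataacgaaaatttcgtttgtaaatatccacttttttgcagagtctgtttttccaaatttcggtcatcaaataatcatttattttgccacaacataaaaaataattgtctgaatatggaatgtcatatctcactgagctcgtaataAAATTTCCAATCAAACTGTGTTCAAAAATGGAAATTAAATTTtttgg

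Hits within 20 bp of each other were merged by the authors, so a block may hold several repeat units, 1 unit or part of one. The X blocks ran from position 201288 to 15222135 of the genome release used by the authors, and 83 of the 107 (77.6%) lay between 8 and 13 Mb. Their median length was 514 bp, from 272 bp (in an intron of alpha-Man-Ia, which encodes a mannosidase) to 41958 bp, and the second longest had 3426 bp. Blocks were short as a rule, with 40 under 400 bp and 12 over 1000 bp.

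When blocks with gaps under 1000 bp were joined, the 107 blocks formed 88 arrays, 77 of them of 1 block and 9 of 2 blocks. The 2 longer arrays are the 3 blocks in an intron of flw (X:10395351-10396360), which encodes a catalytic subunit of protein phosphatase 1, and the 9 blocks in an intron of Pde9 (X:12794782-12797972), a cyclic nucleotide phosphodiesterase gene. Gaps within arrays were at most 366 bp, and gaps between arrays at least 9902 bp with a median of 54719 bp. By gene models of assembly BDGP6.54, 67 blocks lay within introns (of 41 genes), 37 between genes, and 3 overlapped an exon. The exon blocks were 827 bp wholly within roX1 (X:3857704-3858530), a block that reaches 55 bp into CG34026 (X:9534571-9535167), and the PoX2 block itself (X:11889258-11891752), which starts 71 bp after CG1840 and reaches 21 bp into sicily.

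Levels are given as CPM, that is reads counted in a block per 1000000 read pairs counted in genes of the same library, after scaling of the libraries with the TMM factors of the gene table. A read that aligns to several places was counted in full at each of them, so that blocks with like sequence share reads. Gene read pairs ranged from 12186486 to 37992591 per library. Wild-type females had 26816098–31356796 and wild-type males 27141380–37992591, above all Zhr1 and PoX2Df1.688 libraries of either sex (12186486–19640742); the part of this difference in depth in the results was not tested. Reads in X blocks were few, 322–1642 per library and 25535 in all, with a median of 109 reads per block over the 32 libraries. No read fell in 1 block, 4 blocks had under 10 reads, 59 had at least 100, and 10 had reads in every library.

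Pof, measured to check the labels, was at 12.3 ± 1.1 CPM in PofD119 males against 328 ± 15 in wild-type males (SD, n = 4 each; log2 fold change −4.74), and at 8.37 ± 1.7 in PofD119 females against 13.4 ± 0.69 in wild-type females (−0.69). Of markers for tissues of the whole fly, the summed CPM of 6 testis genes was 1196–1328 in wild-type males and 1.06–1.61 in wild-type females. Ovary markers moved with genotype in females. The summed CPM of 4 germline genes was 516–699 in wild type, 283–796 in PofD119, 966–1289 in Zhr1 (3 of 4 genes rose) and 801–898 in PoX2Df1.688 (1 of 4 rose). That of 5 follicle cell genes was 192–874, 2.18–603, 1177–2671 (2 of 5 rose) and 976–2430 (2 of 5 rose). The follicle cell rises were at Cp36 and Cp38, where libraries spread widely. In Zhr1 females they were at 0.333–262 and 0.0666–602 CPM, overlapping wild type (0.275–0.677 and 0.431–0.731). In PoX2Df1.688 females they were at 1.49–165 and 1.45–269 CPM. Of 4 eye genes 2 fell in PofD119 of each sex (inaD and trp), 4 in Zhr1 females, 0 in Zhr1 males, and 2 and 1 in PoX2Df1.688 females and males. Of 4 flight muscle genes 3 rose in PofD119 females and 2 in PofD119 males (fln by 1.56 and 1.35), 4 fell in Zhr1 females and 1 in Zhr1 males, and 1 fell in PoX2Df1.688 females while 1 rose in PoX2Df1.688 males. In males 4, 2 and 2 of 4 accessory gland genes rose in PofD119, Zhr1 and PoX2Df1.688, and of 4 fat body genes 3 fell in PofD119, 1 rose in Zhr1, and 1 rose and 1 fell in PoX2Df1.688. The fat body falls were at the yolk protein genes Yp1, Yp2 and Yp3, where wild-type male libraries spread widely and overlapped the mutants. Yp1 was at 0.298–57.3 CPM in wild-type males, 0.389–0.569 in PofD119 males and 0.183–1.19 in PoX2Df1.688 males. A fall of fat body RNA is thus not shown. The part of all these markers in the block results was not tested, and in whole flies fewer cells of a type and less RNA per cell cannot be told apart.

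RNA from X blocks was most abundant in PofD119 and next in PoX2Df1.688. The summed level of all 107 blocks was 27.99 ± 3.70 CPM in wild-type females (SD, n = 4; range 23.5–32.5) and 22.9 ± 1.38 in wild-type males (21.3–24.5). PofD119 had 62.7 ± 3.45 in females (58.6–66.96) and 55.8 ± 7.74 in males (49.0–66.2), above every wild-type library of its sex. PoX2Df1.688 had 41.4 ± 6.04 in females (36.4–50.2) and 38.2 ± 1.90 in males (36.6–40.3), also without overlap with wild type. Zhr1 females, at 27.7 ± 4.87 (21.1–32.5), overlapped wild type and reached below it, and Zhr1 males, at 26.96 ± 2.71 (24.5–30.8), lay just above it.

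A few blocks carried much of these sums. The 3 flw and 9 Pde9 blocks together held a small share of X reads in wild type (flw 5.42% in females and 7.04% in males, Pde9 1.97% and 1.44%). In PofD119 the flw array alone held 21.6% in females and 25.3% in males, and the Pde9 array 18.3% and 19.2%. Without both arrays, an alternative chosen after seeing the data, the remaining 95 blocks summed to 37.6 ± 2.04 CPM in PofD119 females against 25.9 ± 3.66 in wild type, and to 31.2 ± 5.59 against 20.9 ± 1.74 in males. The rise in PofD119 thus fell from 1.16 to 0.54 on the log2 scale in females and from 1.29 to 0.57 in males, and that in PoX2Df1.688 from 0.56 to 0.36 and from 0.74 to 0.43. Of the other blocks, the longest held 24.4% of X reads in wild-type females and 7.85% in wild-type males, the roX1 block 0.834% and 15.7%, and the pair of blocks in mgl 7.86% and 8.16%.

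**Figure D1:**
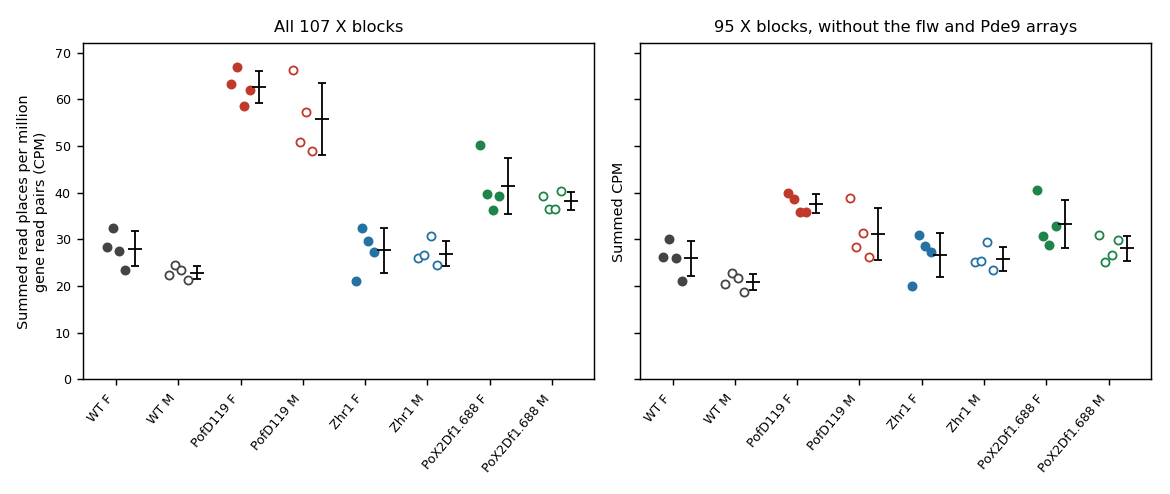
Summed CPM of X blocks in each of the 32 libraries, for all 107 blocks (left) and for the 95 blocks outside the flw and Pde9 arrays (right); filled points are females, open points males, and the bars give mean ± SD of 4 libraries. PofD119 libraries sit between 49.0 and 66.96 on the left and between 26.1 and 39.9 on the right.

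Blocks elsewhere in the genome moved otherwise. The 545 other blocks summed to 279 CPM in wild-type females, 372 in PofD119, 98.3 in Zhr1 and 699 in PoX2Df1.688, and to 345, 347, 315 and 656 in males. The share of all block reads that fell on the X was 8.15–10.1% in wild-type females, 12.9–16.6% in PofD119 females, 20.4–24.5% in Zhr1 females and 4.57–6.46% in PoX2Df1.688 females. In males it was 5.41–7.43% in wild type, 13.04–15.2% in PofD119, 5.99–9.07% in Zhr1 and 4.85–6.51% in PoX2Df1.688. Counted by direction over all 107 X blocks with no filter, the mean was higher than in wild type for 86 blocks in PofD119 females and 85 in PofD119 males (80.4% and 79.4%), against 73.9% and 60.6% of the other 545. For Zhr1 it was higher for 54.2% of X blocks in females and 59.8% in males, against 19.1% and 20.9% of the others, and for PoX2Df1.688 62.6% and 65.4% against 89.5% and 84.6%.

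Single blocks were tested by edgeR (quasi-likelihood F test) against wild type of the same sex, with p adjusted over the blocks of all chromosomes that passed a filter on low counts (291 in females, 278 in males) and 0.05 as threshold. Of the 107 X blocks 34 passed this filter in females and 32 in males, so that the larger part of the blocks went untested. The filter takes all groups of a sex together, so a block low in wild type can pass through a mutant where it is high. This holds for the Pde9 blocks and, among others, for the blocks in introns of rdgA and CARPB, which all count among the rises below. The counts of rises thus hold blocks that the filter took in for being high in a mutant. In PofD119 females 14 of the 34 rose, where 12.7% of all tested blocks rose, and 0 fell (0% of all; also 0 at an unadjusted p under 0.05 and 0 by DESeq2). In PofD119 males 17 of 32 rose (26.3% of all tested blocks) and 2 fell (13.7% of all). The median log2 fold change over the tested X blocks was 0.82 in females and 1.19 in males, against 0.44 and 0.14 over all tested blocks. When each array was counted once, 5 of 25 tested X arrays rose in females and 8 of 21 in males, with 2 falling in males. The share over arrays of all chromosomes was not counted, so these numbers cannot be set against a background.

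In Zhr1 the X blocks stood apart from the rest by a small number of falls. In females 5 rose (8.93% of all tested blocks) and 4 fell (67.4% of all), and in males 12 rose (25.9%) and 4 fell (56.1%). The median over tested X blocks was 0.18 in females and 0.64 in males, against −5.36 and −1.996 over all. In PoX2Df1.688 females 19 rose (77.7% of all) and 3 fell (2.06%), and in males 21 rose (59.7%) and 2 fell (0.719%), with medians of 1.18 and 1.74 against 1.38 and 1.07. Shares of X blocks that rose in PoX2Df1.688 were thus near or under the background. The 3 mutants of one sex share their 4 wild-type libraries.

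These splits depend on how libraries are scaled. Under TMM computed on the block table itself, 12 of 12 called X blocks were up in PofD119 females, 12 of 14 in PofD119 males, 2 of 10 in Zhr1 females, 2 of 17 in Zhr1 males, 6 of 14 in PoX2Df1.688 females and 9 of 17 in PoX2Df1.688 males. The rises of PofD119 held their direction under it, whereas the balance of rises and falls in Zhr1 and PoX2Df1.688 moved toward falls. Shares over all tested blocks were not counted under this scaling, so these splits cannot be set against a background.

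Over the 6 mutant comparisons and the comparison of the sexes in wild type, 43 X blocks were tested at least once and 32 were called at least once. Of the 30 X blocks tested in both sexes, among 200 such blocks in all, 13 rose in both sexes in PofD119 (11.5% of the 200). In Zhr1, 2 rose (9% of the 200) and 3 fell (59%) in both, and in PoX2Df1.688 17 rose (68.5%) and 1 fell (0.5%) in both. No X block was called in opposite directions in the sexes of 1 genotype. The test of a difference of effect between the sexes called 0 of 43 X blocks for PofD119 (0% of 394 tested blocks; 3 at an unadjusted p under 0.05, 0 by DESeq2), 0 for Zhr1 (0% of all; 11 unadjusted, 4 by DESeq2) and 1 for PoX2Df1.688 (4.82% of all; 1 by DESeq2).

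**Figure D2:**
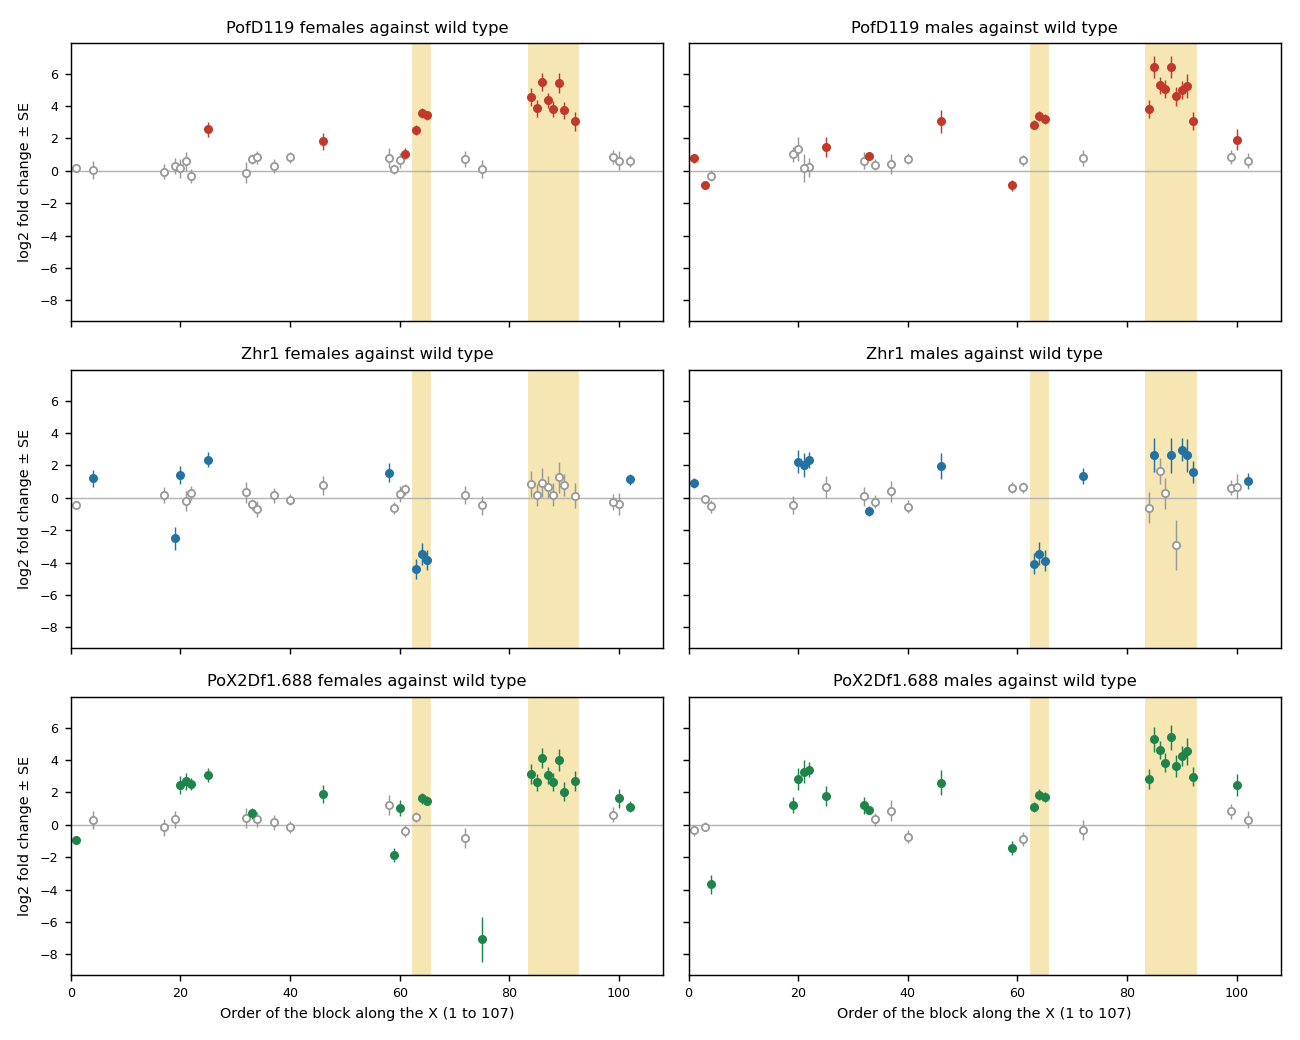
Log2 fold change ± SE against wild type of the tested X blocks, in their order along the X (1 to 107), for the 3 mutants and both sexes; coloured points passed the edgeR threshold, open grey points did not, and the shaded spans mark the flw array (left) and the Pde9 array (right). Points in the Pde9 span lie above 0 in PofD119 and PoX2Df1.688 of both sexes, and the 3 points in the flw span lie between −4.39 and −3.44 in Zhr1.

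By place, most rises in PofD119 were found in introns. Of intronic blocks 14 of 26 tested rose in females and 16 of 24 in males, against 0 of 6 and 1 of 6 of the blocks between genes; 11 and 12 of these intronic rises belong to the flw and Pde9 arrays. Outside the arrays 3 of 23 tested blocks rose in females, and in males 5 of 20 rose and 2 fell. Over all tested blocks 12.7% rose in females, and in males 26.3% rose and 13.7% fell. The counts outside the arrays were thus near this background. They also hold blocks, such as those in rdgA and CARPB, that passed the filter only through mutant libraries. Along the chromosome, 8 of the 14 rises in females and 10 of the 17 in males lay beyond 12 Mb, where the Pde9 array is. Of the 11 blocks before 8 Mb, 2 were tested in females and 3 in males. In Zhr1 and PoX2Df1.688 blocks between genes were also called up, 2 of 6 in Zhr1 females, 4 of 6 in Zhr1 males, and 3 of 6 in PoX2Df1.688 of each sex. Over all tested blocks 8.93% and 25.9% rose in Zhr1 females and males, and 77.7% and 59.7% in PoX2Df1.688 females and males.

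Levels per length were compared next, in CPM per kb of block. In wild-type females the median was 0.248 over the 67 intronic blocks and 0.0872 over the 37 between genes, and in males 0.219 and 0.0774. Intronic blocks also had the higher median in the 6 mutant groups. Across the 67 intronic blocks, of which some share a gene, the level per kb went with that of the gene around them, with a Spearman rho of 0.57 in wild-type females, 0.55 in wild-type males, 0.46 and 0.52 in PofD119, 0.36 and 0.38 in Zhr1 and 0.50 and 0.51 in PoX2Df1.688 (females, then males). No block exceeded its gene per kb in wild type, but the gene values are read pairs over exons, without reads of several places, and the strand was not used, so unspliced RNA of the gene and RNA of the block cannot be told apart.

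**Figure D3:**
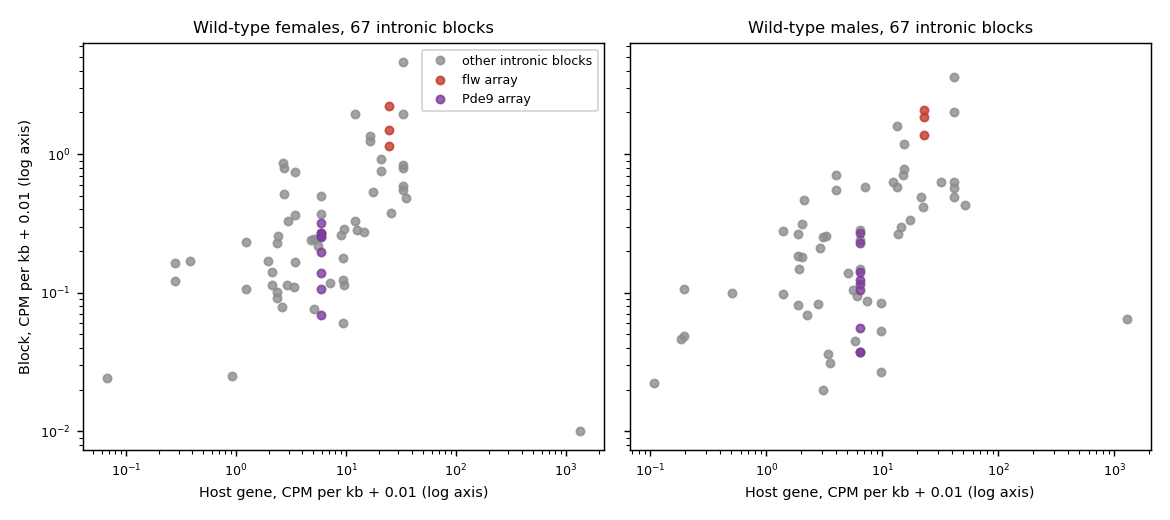
Level of the 67 intronic blocks against that of the gene whose intron holds them, both in CPM per kb plus 0.01 on log axes, in wild-type females (left) and males (right); each point is the mean of 4 libraries, red points are the flw array and purple points the Pde9 array. Blocks of genes with a higher level tended to be higher (Spearman rho 0.57 and 0.55), and the 9 Pde9 blocks lie between 0.0586 and 0.31 CPM per kb in females and between 0.0273 and 0.259 in males, where intronic blocks outside both arrays reach 4.63 and 3.62.

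Length and spacing went with the level in some genotypes. Over all 107 blocks the Spearman rho of level per kb with length was −0.13 in wild-type females and −0.21 in wild-type males, −0.40 and −0.43 in PofD119, −0.30 and −0.31 in PoX2Df1.688 and −0.01 in Zhr1 of both sexes. With the gap to the nearest block it was −0.02 and 0.00 in wild type, −0.31 and −0.20 in PofD119, −0.33 and −0.25 in PoX2Df1.688, and 0.01 and 0.10 in Zhr1. The 12 blocks of both long arrays are short and closely spaced, and they share reads, so these values describe the points and test nothing. With position along the X the rho was between −0.03 and 0.16 in all 8 groups.

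In wild type the blocks of highest level per kb lay in genes of several kinds. The first in females was a block in an intron of mgl (X:9422776-9423115), the gene of an endocytic receptor of the LDL receptor family, with 4.63 CPM per kb, and it was also high in males with 3.62. Its neighbour in the same intron, X:9423172-9423498, had 1.94 and 2.01. The first in males was the roX1 block with 4.25 CPM per kb. Of the flw array, the block X:10395351-10395662 had 2.22 in females and 2.07 in males and X:10396049-10396360 had 1.49 and 1.83. A block in an intron of Hk (X:10261884-10262441), which encodes a potassium channel beta subunit, had 1.93 in females and 1.59 in males. All of these lay far above the median over blocks of either kind of place.

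The flw array gave opposite results in PofD119 and Zhr1. In wild-type females its 4 libraries had 1.92, 1.88, 1.10 and 1.13 CPM, and in wild-type males 1.55, 1.57, 1.18 and 2.29. PofD119 females had 12.8, 17.1, 11.9 and 12.6 CPM and PofD119 males 20.6, 10.7, 13.4 and 13.1, so that the lowest mutant library lay above the highest of wild type by a wide margin in both sexes. With the array counted as 1 unit, the log2 fold change was 3.15 ± 0.26 in females (SE; edgeR adjusted p = 5.7e-10) and 3.13 ± 0.29 in males (adjusted p = 1.7e-12). All 3 blocks rose in both sexes, by 2.52, 3.59 and 3.43 in females and 2.86, 3.39 and 3.19 in males from first to last.

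In Zhr1 the array was nearly silent. The 4 female libraries had 3, 3, 0 and 0 reads and the male libraries 0, 6, 0 and 0, against 31–61 and 40–65 reads in wild type. Each block held 2 of these reads per sex, with equal counts at the 3 blocks in every Zhr1 library. They may be the same reads counted at each block, so in Zhr1 the 3 blocks are not independent measurements. The level of 0.0836 CPM in Zhr1 females and 0.0999 in Zhr1 males compares with 1.51 ± 0.45 and 1.65 ± 0.46 in wild type (SD, n = 4), ratios of 0.0553 and 0.0594 over pooled reads and scaled depth. Fitted log2 fold changes were −4.10 ± 0.47 (adjusted p = 9.8e-09) and −3.97 ± 0.52 (adjusted p = 2.2e-09), no library overlapped, and all 3 blocks fell in both sexes.

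PoX2Df1.688 lay between wild type and PofD119. Females had 4.51, 3.20, 3.51 and 2.51 CPM and males 4.73, 5.43, 3.99 and 4.38, all above wild type of the same sex. The array rose by 1.18 ± 0.27 in females (adjusted p = 0.000295) and 1.55 ± 0.29 in males (adjusted p = 8.6e-06), with 2 of 3 blocks called in females and 3 of 3 in males. The median over all tested blocks was 1.38 in PoX2Df1.688 females and 1.07 in males. With TMM on the block table the 3 blocks were at −0.82, 0.34 and 0.19 in females. In males they were at −0.10, 0.64 and 0.50, and none was called in either sex. For the array in each of the 6 mutant comparisons, the exact permutation test over libraries (two-sided, log2 of CPM + 0.1) gave p = 0.0286, the smallest that 4 against 4 allow. The sexes of wild type did not differ detectably at the array, with a log2 difference of 0.11 and an adjusted p of 0.75.

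The gene around the array moved much less. The level of flw was 105 ± 4.5 CPM in wild-type females and 97.8 ± 7.8 in PofD119 females, and 97.0 ± 3.7 against 97.3 ± 3.5 in males (SD, n = 4), with log2 fold changes of −0.11 and 0.01 that did not pass the test. It fell by 0.45 on the log2 scale in Zhr1 females and by 0.29 in PoX2Df1.688 females, and was at −0.10 in Zhr1 males and −0.07 in PoX2Df1.688 males, neither called.

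The Pde9 array had the largest rises among X arrays in PofD119 and in PoX2Df1.688 males. In wild type it was low, with 6, 17, 11 and 32 reads in the female libraries and 10, 3, 20 and 8 in the male libraries, at 0.57 ± 0.42 and 0.31 ± 0.17 CPM (SD, n = 4). PofD119 females had 10.6, 11.2, 10.9 and 13.4 CPM and PofD119 males 6.61, 11.9, 12.5 and 9.81. The pooled level was 20.6-fold higher than wild type in females and 32.1-fold higher in males. The log2 fold change was 4.34 ± 0.37 (adjusted p = 8.2e-10) in females and 4.96 ± 0.31 (adjusted p = 2.5e-18) in males.

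PoX2Df1.688 females had 5.03, 5.77, 4.10 and 3.73 CPM and PoX2Df1.688 males 3.69, 5.98, 5.98 and 6.05, which no wild-type library reached. The array rose by 3.06 ± 0.38 in females (adjusted p = 3.0e-07) and by 4.11 ± 0.31 in males (adjusted p = 6.9e-15). In Zhr1 the array was called in males only, and none of its blocks was called in the test of a difference between the sexes. Zhr1 females had 0.897, 1.34, 1.11 and 0.0666 CPM, overlapping wild type, with 0.63 ± 0.44 and an adjusted p of 0.18. In Zhr1 males, with 0.834, 0.799, 1.29 and 1.07 CPM, the array rose by 1.65 ± 0.36 (adjusted p = 6.2e-05) without overlap.

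Single blocks of the array were then tested. In PofD119 8 of 8 tested blocks rose in females, by 3.06 to 5.50, and 9 of 9 in males, by 3.10 to 6.40. In PoX2Df1.688 8 of 8 rose in females, by 2.05 to 4.13, and 9 of 9 in males, by 2.83 to 5.40. These blocks were low in wild type and Zhr1 and passed the filter only through PofD119 and PoX2Df1.688 libraries. That all tested blocks rose in those mutants was thus largely set by the filter, and these counts add no support to the fold changes. In Zhr1 males 5 of 9 rose, by 1.58 to 2.98, and the other 4 differed among themselves and were not called, with 0 reads against 5 in wild type at X:12796580-12796858, 3 against 10 at X:12794782-12795059 (−0.62), 3 against 5 at X:12795816-12796138 (0.28) and 7 against 4 at X:12795500-12795778 (1.66). In Zhr1 females 0 of 8 were called. Of the blocks called in Zhr1 males, X:12795097-12795418 rested on 5 reads against 1 in wild type. Its libraries overlapped, with an exact permutation p of 0.143. This block and X:12796176-12796497 lost their calls in Zhr1 males with TMM on the block table (edgeR adjusted p = 0.088 and 0.091). The blocks X:12795097-12795418 and X:12796176-12796497 had equal counts in 28 of the 32 libraries and differed by at most 3 reads in the others, so that they are not independent measurements. Both had 1 read over all wild-type males and 105 over all PofD119 males, a ratio of 151 with a 95% counting interval of 26.4 to 6001.

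Pde9 itself was at 75.0 ± 5.2 CPM in wild-type females and rose by 0.47 in PofD119 females (105 ± 3.7), and in Zhr1 males by 0.32 (100 ± 10 against 82.1 ± 5.4 in wild type). In PofD119 males it had a log2 fold change of 0.20 and in PoX2Df1.688 0.15 and 0.21 for females and males, none of them called. Changes of the array on the log2 scale were thus several times those of its gene.

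**Figure D4:**
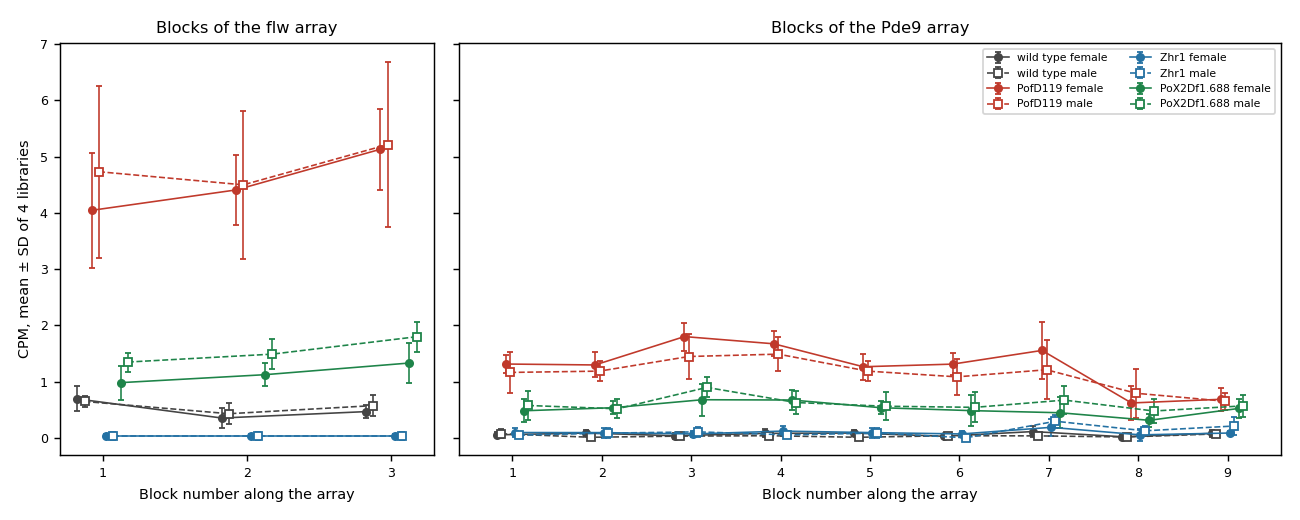
Mean CPM ± SD of 4 libraries for each block of the flw array (left, 3 blocks) and of the Pde9 array (right, 9 blocks), numbered along the array; filled points and full lines are females, open squares and broken lines males. PofD119 is highest at every block and PoX2Df1.688 next, apart from the last Pde9 blocks, where both lie close together, and Zhr1 lies below wild type at the 3 flw blocks.

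The PoX2 block lies between CG1840 and sicily, a gene for assembly of mitochondrial complex I, and is the stretch that PoX2Df1.688 lacks. Wild-type females had 16, 23, 37 and 14 reads (0.76 ± 0.36 CPM) and wild-type males 18, 4, 7 and 15 (0.35 ± 0.21). PoX2Df1.688 females had 0 reads in all 4 libraries, at least 16.1-fold lower than wild type when 3 counts over the group are taken as the floor, and the edgeR test called the fall (adjusted p = 5.6e-05). PoX2Df1.688 males had 1, 0, 2 and 1 reads, below every wild-type male library (exact permutation p = 0.0286), and the block did not pass the filter in males. Reads were thus absent or nearly absent where the labels give a deletion.

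In the other mutants the block varied between libraries. PofD119 females had 40, 25, 4 and 11 reads and Zhr1 females 0, 24, 14 and 3, both overlapping wild type and not called. PofD119 males had 20, 25, 8 and 12 and Zhr1 males 8, 0, 4 and 0. The log2 difference between the sexes of wild type was −1.09 ± 0.62 with an adjusted p of 0.12. Of the genes at its ends, sicily fell by 0.76 in PoX2Df1.688 males (8.45 ± 2.0 against 14.7 ± 1.0 CPM in wild type, adjusted p = 0.00135) and was at −0.22 in PoX2Df1.688 females, not called. CG1840 rose by 0.73 in PofD119 females and by 0.68 in Zhr1 females, and in PoX2Df1.688 it was at 0.45 in females and 0.29 in males, not called.

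Between the sexes of wild type 2 of 43 tested X blocks were higher in males (26.6% of 394 tested blocks) and 4 were lower (31.2% of all). The roX1 block was the highest of these in males. It had 131, 74, 149 and 93 reads in wild-type males and 2, 18, 8 and 0 in wild-type females, a log2 difference of 3.89 ± 0.42 (adjusted p = 3.6e-11), while roX1 as a gene was at 3.5 ± 0.70 CPM in females and 1002 ± 64 in males. The block fell by 0.89 ± 0.26 in PofD119 males (adjusted p = 0.0103), with 1.57, 1.77, 2.14 and 2.06 CPM against 3.90, 2.90, 4.01 and 3.27, and the gene, at 1117 ± 45 CPM, did not (0.16, not called). Zhr1 males had 3.28, 3.26, 4.83 and 1.30 CPM and PoX2Df1.688 males 2.75, 2.75, 3.49 and 3.58, neither called.

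The longest block, 41958 bp before CG3038 at the left end of the X, was higher in females. Wild-type females had 6.66, 9.51, 6.19 and 4.79 CPM and wild-type males 1.79, 1.02, 2.74 and 1.27, a log2 difference of −1.97 ± 0.29 (adjusted p = 1.3e-07) without overlap. Per kb it was low, 0.162 CPM in females and 0.041 in males. It fell by 0.96 ± 0.23 in PoX2Df1.688 females (4.88, 3.25, 3.11 and 2.71 CPM; adjusted p = 0.00041) and rose by 0.90 ± 0.31 in Zhr1 males (adjusted p = 0.0096). A rise of 0.76 ± 0.31 in PofD119 males was just past the threshold (adjusted p = 0.0478) and was lost by DESeq2 and when any of several single libraries was left out. CG3038, 708 bp from its end, was also lower in wild-type males (−1.38, called), and the gene before it, FBgn0029128, was higher in them (0.65, called).

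A block of 678 bp at X:4070691-4071368, between the long non-coding RNA gene CR46247 and CG43689, gave the one called difference of effect between the sexes. Wild-type males had 36, 23, 41 and 32 reads and wild-type females 12, 16, 9 and 1, a log2 difference of 1.73 ± 0.45 (adjusted p = 0.00118). PoX2Df1.688 males had 2, 0, 0 and 2 reads, and the block fell by 3.68 ± 0.59 (adjusted p = 2.9e-06), without overlap. PoX2Df1.688 females had 0.592, 0.242, 0.529 and 0.203 CPM and did not differ detectably from the 0.309 ± 0.20 of wild type (0.30 ± 0.57). Subtracting the female from the male log2 fold change gave −4.00 ± 0.90 (adjusted p = 0.00284). In Zhr1 females the block rose by 1.21 ± 0.52 (adjusted p = 0.036), a call that was lost without wild-type female replicate 3 or 4 or Zhr1 female replicate 2 or 4.

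The other 3 blocks lower in wild-type males were both equal-count blocks of the Pde9 array (−2.69 each, 1 read against 10) and a block in an intron of CG33181 (X:8495634-8496231, −1.19, adjusted p = 0.049).

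**Figure D5:**
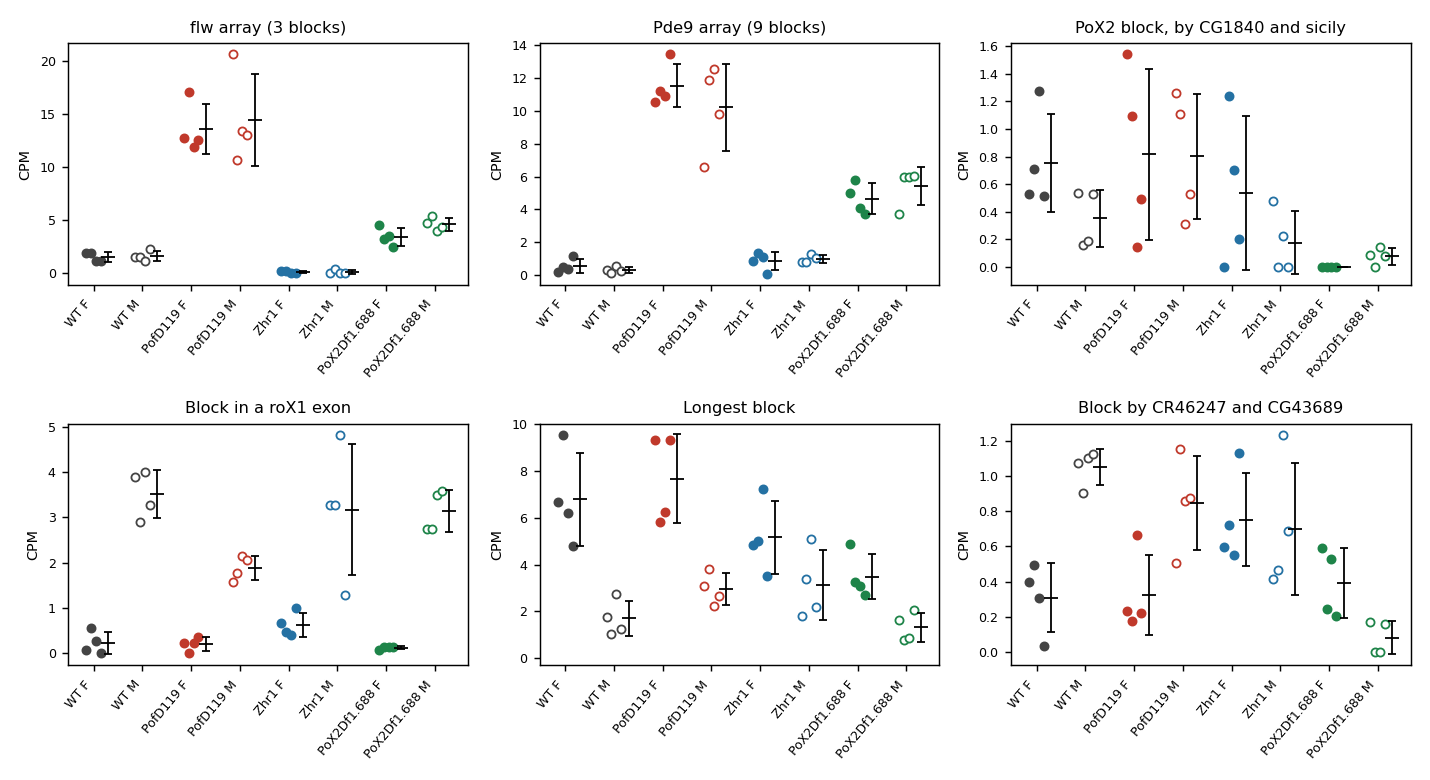
CPM in each of the 32 libraries for the flw array, the Pde9 array, the PoX2 block, the roX1 block, the longest block and the block by CR46247 and CG43689; filled points are females, open points males, and bars give mean ± SD of 4 libraries. The flw array lies between 10.7 and 20.6 in PofD119 and at or below 0.40 in Zhr1, the PoX2 block is at 0 in all 4 PoX2Df1.688 females, and the roX1 block is higher in males of each genotype.

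Away from both arrays, 3 blocks between CG11294 and Lim1 rose in PoX2Df1.688 of both sexes and in Zhr1 males. Lim1 encodes a LIM homeobox transcription factor, and the blocks are X:8699130-8702555 (3426 bp), X:8735073-8736045 (973 bp) and X:8750430-8753009 (2580 bp, 3529 bp before Lim1). At the last of these, wild-type females had 0.662, 0.523, 0.241 and 0.293 CPM and PoX2Df1.688 females 2.59, 2.91, 2.12 and 2.44. In males it had 0.238, 0.274, 0.269 and 0 CPM in wild type, 2.06, 1.83, 2.49 and 1.91 in PoX2Df1.688, and 0.596, 1.6, 0.786 and 1.07 in Zhr1. These groups did not overlap with wild type. In males this block was low in wild type and passed the filter only through mutant libraries.

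The 3 blocks rose in PoX2Df1.688 by 2.45, 2.68 and 2.54 in females and by 2.84, 3.29 and 3.40 in males, in the order given. In Zhr1 males they rose by 2.21, 2.02 and 2.33, and in Zhr1 females the first rose by 1.42 and the others did not pass. Over all tested blocks 77.7% and 59.7% rose in PoX2Df1.688 females and males, and 25.9% in Zhr1 males. With TMM on the block table the first block was not called in PoX2Df1.688 or Zhr1 of either sex. The second was not tested under that scaling, and the last kept its calls. The 3 blocks may share reads of several places. None of the 3 was called in PofD119. The genes nearby were at 14.5 ± 1.3 CPM (Lim1) and 1.07 ± 0.48 CPM (CG11294) in wild-type females, and at 13.7 ± 2.1 and 0.893 ± 0.14 in PoX2Df1.688 females. In males Lim1 was at 20.4 ± 4.0 CPM in wild type, 20.1 ± 2.0 in Zhr1 and 22.9 ± 0.92 in PoX2Df1.688, and CG11294 at 14.8 ± 3.2, 13.6 ± 1.6 and 12.2 ± 1.5, none of them called. The long non-coding RNA gene CR43297 (lncRNA:CR43297), the nearest gene before the second and the last block, rose by 1.15 in Zhr1 males (adjusted p = 0.0069), from 2.34 ± 0.50 to 5.12 ± 1.3 CPM, and was at −0.12 in PoX2Df1.688 males (2.07 ± 0.92 CPM, not called).

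A block of 340 bp in an intron of rdgA (X:9005789-9006128), the gene of an eye-enriched diacylglycerol kinase, rose in all 3 mutants in females. It had 0.132, 0.154, 0.103 and 0.110 CPM in wild-type females, 0.616, 0.611, 0.666 and 1.21 in PofD119, 0.718, 0.723, 0.654 and 0.599 in Zhr1 and 1.78, 0.679, 1.32 and 0.678 in PoX2Df1.688, and no mutant library overlapped with wild type. The log2 fold changes were 2.56 ± 0.44 (adjusted p = 3.6e-05), 2.35 ± 0.46 (adjusted p = 2.5e-05) and 3.08 ± 0.44 (adjusted p = 7.0e-07). In males it rose in PofD119 (1.47, adjusted p = 0.048, lost without PofD119 male replicate 1 or 4 among others) and PoX2Df1.688 (1.77, adjusted p = 0.0124), and was at 0.67 in Zhr1, not called. In both sexes the block was low in wild type and passed the filter only through mutant libraries. That it rose in mutants was thus in part set by the filter, and the calls add no support to the fold changes. The block also lies in an intron of the long non-coding RNA gene CR43836 (lncRNA:CR43836), which rose by 1.20 in Zhr1 females (adjusted p = 1.5e-05) and by 0.54 in PoX2Df1.688 females (adjusted p = 0.0146) and was at 0.39 in PofD119 females, not called. In males it was at 0.46, 0.52 and 0.33 in PofD119, Zhr1 and PoX2Df1.688, not called. The rdgA gene fell by 0.38 in Zhr1 females and was otherwise not called. Of 4 eye markers 2 fell in PofD119 females, 4 in Zhr1 females and 2 in PoX2Df1.688 females, and their part in the block's rise was not tested.

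The block in an intron of CARPB (X:9809613-9810454), which encodes a carbonic anhydrase-related protein, rose by 1.82 in PofD119 females, 3.06 in PofD119 males, 1.96 in Zhr1 males, 1.90 in PoX2Df1.688 females and 2.60 in PoX2Df1.688 males. It had 7, 4, 10 and 1 reads in wild-type females and 1, 2, 5 and 0 in wild-type males. In both sexes the block was thus low in wild type and passed the filter only through mutant libraries, so its rises were in part set by the filter. The CARPB gene rose in all 3 mutants and both sexes, by 1.10 and 1.30 in PofD119 females and males, 0.49 and 0.87 in Zhr1 and 0.91 and 1.55 in PoX2Df1.688, from 20.7 ± 2.6 CPM in wild-type females and 16.6 ± 3.3 in wild-type males. The neighbouring block in the same intron, 26 bp away (X:9808875-9809586), did not pass the filter. It had 0.0918 CPM per kb in wild-type, 0.111 in PofD119 and 0.749 in PoX2Df1.688 females, and 0.175, 0.0648 and 0.615 in males. The mgl block (X:9422776-9423115) rose by 0.93 in PofD119 males (adjusted p = 0.0063) and by 0.70 and 0.91 in PoX2Df1.688 females and males (adjusted p = 0.047 and 0.0037), and fell by 0.79 in Zhr1 males (adjusted p = 0.020). In PoX2Df1.688 both of its values turned to −0.62 and −0.30 when libraries were scaled by the block table. The mgl gene fell by 0.25 and 0.26 in Zhr1 females and males.

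Falls outside the flw array and the PoX2 block were few. The Hk block (X:10261884-10262441) had 0.861, 1.14, 0.928 and 1.39 CPM in wild-type females and 0.148, 0.0485, 0.595 and 0.407 in PoX2Df1.688 females, and fell by 1.87 ± 0.43 (adjusted p = 0.00023). It fell by 1.42 ± 0.42 in PoX2Df1.688 males (adjusted p = 0.0040) and by 0.90 in PofD119 males (adjusted p = 0.046, lost by DESeq2 and without several single libraries). The Hk gene fell by 0.36 in Zhr1 females and was not called in PoX2Df1.688 (−0.05 and 0.06). Another block of the gene, X:10239962-10240608, rose by 1.56 in Zhr1 females, a call lost without wild-type female replicate 2 or Zhr1 female replicate 4.

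The block in CG12065 (X:8577499-8578266) had 19, 22, 5 and 5 reads in wild-type females and 3, 2, 0 and 0 in Zhr1 females, and fell by 2.503 ± 0.72 (adjusted p = 0.0020). The exact permutation test over libraries gave p = 0.0571, since the groups overlap in CPM. In PoX2Df1.688 males it rose by 1.23 (adjusted p = 0.028), lost without any of several single libraries. CG12065 fell by 0.66 in Zhr1 females and by 0.74 in PoX2Df1.688 females. The shortest block, of 272 bp in alpha-Man-Ia, rose by 1.04 in PoX2Df1.688 females (adjusted p = 0.046), a call that DESeq2 did not give. A block of 1657 bp in an intron of Syt12, a synaptotagmin gene, rose by 1.93 in PofD119 males and by 1.62 and 2.46 in PoX2Df1.688 females and males.

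Genes for proteins and RNAs linked to satellites and heterochromatin were read beside the blocks from a list of 18, chosen with earlier results of these data known. In PofD119, 0 of 17 tested rose and 3 fell in females, and 2 rose and 3 fell of 18 in males, where 8.09% and 8.41% of all tested genes rose and fell in females and 13.6% and 11.6% in males. The falls include Pof, AGO2 of the siRNA pathway (−0.65 and −0.62) and del, which encodes a partner of Rhino at piRNA clusters (−0.82 and −0.57). In Zhr1 females 7 of 17 rose (20.3% of all genes), among them D1, a satellite-binding protein gene (0.54), and the gene of the heterochromatin protein HP1a (0.48), and 1 fell (20.8% of all). The summed germline markers of the ovary were also higher in Zhr1 females than in wild type, and their part in these rises was not tested. In Zhr1 males 0 of 18 rose (12.6% of all) and 1 fell (10.4%). In PoX2Df1.688 1 of 17 rose (8.9% of all) and 1 fell (10.5%) in females, and 0 of 18 rose (11.5%) and 1 fell (9.42%) in males. The median over the list was −0.05 and −0.07 in PofD119, 0.24 and 0.04 in Zhr1 and 0.14 and −0.03 in PoX2Df1.688, against −0.01 to 0.02 over all genes.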

How the data were processed

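RNA of 32 libraries was depleted of ribosomal RNA, made into libraries with the NuGEN Ovation kit and read as pairs. The deposited values are raw counts. To make them the authors used Trimmomatic 0.36 for trimming, SortMeRNA against ribosomal reads, STAR 2.5.4b for alignment to release 6.13 and featureCounts 1.6.3 for counting. Counts per block are single reads with every place of a read counted in full (up to 10 places by default of the aligner), so that reads shared by like blocks raise all of them. Counts per gene are read pairs without reads of several places. Neither used strand. Per the methods of the study, replicates are biological replicates, each of 10 flies of 1 strain. The 17490 genes of the gene table gave the library sizes.

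R 4.3.3 with edgeR 4.0.16 was used (DESeq2 1.42.0 as an alternative), and Python 3.11.15. Block counts were scaled by total gene counts and TMM factors of the gene table and filtered with filterByExpr (minimum count 10, minimum total 15). The quasi-likelihood F test compared each mutant with wild type in 16 libraries of 1 sex, and sexes and differences between them in all 32, two-sided, with Benjamini-Hochberg adjustment over all tested blocks or genes. SE is the absolute log2 fold change divided by the square root of F. Ratios with 1 to 3 reads in a group have exact 95% intervals, which cover counting error only. Blocks were named if the study names them, if they were among the 5 highest per kb in wild type of either sex, the longest or shortest, or among the 3 largest called changes per direction (of blocks or of arrays); the CARPB block was named after its values were seen. Members, lists and alternatives were chosen with earlier results of these data known. X blocks were assigned to genes with assembly BDGP6.54, in which 2561 of 2615 X genes have the same coordinates as in the gene table. The test was tested on simulated data. Alternatives were DESeq2, other scaling and filters, a fold change limit, arrays, all libraries in 1 fit, a replicate block and 1 library left out. The genome sequence and the study's own columns of comparisons were not used here.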

Additional observations from a re-analysis of the deposited data

Results flagged for a closer look

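In 11 of 88 group values checked over named blocks and arrays, 1 library stood far from the other 3 of its group, where chance gives about 1 in 20. At the flw array these were PofD119 female replicate 2 with 17.1 CPM (others 11.9–12.8) and Zhr1 male replicate 2 with 0.400 (others 0), and at the Pde9 array PoX2Df1.688 male replicate 1 with 3.69 (others 5.98–6.05). The mgl block stood out in Zhr1 female replicate 2 (2.53, others 0.598–0.905), wild type male replicate 2 (1.61, others 1.07–1.16) and PoX2Df1.688 male replicate 2 (2.81, others 1.98–2.07). The block at X:8750430-8753009 was low in PofD119 female replicate 2 (0.0873, others 0.407–0.449) and wild type male replicate 4 (0, others 0.238–0.274). The rdgA block was high in PofD119 female replicate 4 (1.21, others 0.611–0.666), the block at X:4070691-4071368 in PofD119 female replicate 3 (0.666, others 0.175–0.231), and the CG12065 block low in PoX2Df1.688 male replicate 2 (0.489, others 0.773–0.796). The effect of PoX2Df1.688 at the block X:4070691-4071368 differed between the sexes by −4.00 on the log2 scale (males minus females, adjusted p = 0.00284 in the edgeR interaction test).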

How the results depend on the processing

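Named calls kept their direction and side of the threshold in 94 cases by DESeq2 and lost it in 5, in 62 and 25 with TMM on the block table, in 93 and 6 under a replicate block, and in 726 and 74 when 1 library was left out. With block-table TMM, named values that reversed numbered 4, the alpha-Man-Ia block (−0.27) and the mgl block (−0.62) in PoX2Df1.688 females and the mgl block (−0.30) and the first flw block (−0.10) in PoX2Df1.688 males; that scaling divides by block totals that the genotypes themselves shift. It called 14 X blocks in PoX2Df1.688 females and 2 with a difference between the sexes in Zhr1, for which DESeq2 called 4. With no filter on low counts 14 were called in Zhr1 females. Arrays counted once gave 5 and 10 calls in PofD119 females and males, 10 in Zhr1 males and 14 and 13 in PoX2Df1.688 females and males. These are fewer than the calls of blocks mainly because the called blocks of the flw and Pde9 arrays became 1 unit per array. The summed level changed by 1.16 and 1.29 (log2, PofD119 females and males), −0.02 and 0.24 (Zhr1) and 0.56 and 0.74 (PoX2Df1.688); the median over X blocks gave 0.47 and 0.53 for PofD119 and 0.31 and 0.38 for PoX2Df1.688, sums without the longest block gave 1.38 for PofD119 females and 0.84 for PoX2Df1.688 females, and sums without the flw and Pde9 arrays gave 0.54, 0.57, 0.36 and 0.43. With 1 library left out the called X blocks were 12–14 and 15–18 in PofD119, 8–12 and 11–15 in Zhr1, 21–25 and 21–24 in PoX2Df1.688 and 5–8 between the sexes; differences between the sexes stayed at 0 for PofD119 and Zhr1 and at 1 to 3 for PoX2Df1.688, where 3 were called without wild type male replicate 4. Summed changes then ranged over 1.09–1.24, 1.19–1.34, −0.10–0.09, 0.17–0.28, 0.46–0.64 and 0.71–0.77 in the same order. Replicate numbers did not pair the libraries (correlations of −0.226 to 0.155), and a replicate block gave 14, 16, 9, 16, 21 and 23 calls, 5 between the sexes. With 109 reads over 32 libraries at the median block, changes of most single blocks were not detectable at this depth.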

Other observations

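Further calls at single blocks are given here as log2 fold changes, for blocks named after their values were seen. The block X:13693023-13693853 rose in Zhr1 females (1.14), Zhr1 males (1.03) and PoX2Df1.688 females (1.13). The block X:10302399-10302945 rose in PofD119 females (1.07) and was at −0.40 in PoX2Df1.688 females, not called. X:10989910-10991401 rose in Zhr1 males (1.35) and X:9396833-9397244 in PoX2Df1.688 males (1.21).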
